A study of Mus musculus with 6 samples.

Results

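The 9 genes described here are the mouse NLRP genes of the oocyte that lie outside the core of the subcortical maternal complex: Nlrp14, Nlrp2, Nlrp9a, Nlrp9b, Nlrp9c, Nlrp4a, Nlrp4b, Nlrp4c and Nlrp4e. They were picked by gene name from the 22416 genes of the deposited table, without use of their values. All 9 had a row, and all 9 passed the limit for testing, a mean FPKM (fragments scaled to coding length and to the reads of the library) of 1 or more over the 6 libraries.

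NLRP proteins carry a pyrin domain, a nucleotide-binding NACHT domain and leucine-rich repeats. Some members of the family sense danger signals in immune cells and assemble inflammasomes, whereas a separate branch is read mainly in the germ line and is stored in the egg. Several of these reproductive genes are maternal-effect genes: offspring fail when the mother, not the embryo, lacks them. Mouse oocytes stop transcribing at the end of growth, so the proteins made during meiotic maturation come from stored mRNAs whose use by ribosomes is switched on or off.

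Ribo-lite, which sequences the mRNA pieces covered by ribosomes (footprints) from few cells, was run on 500 oocytes per library. WT_FGO libraries held fully grown oocytes, WT_MII libraries held control oocytes matured in culture to metaphase II, and Treat_MII libraries held treated metaphase II oocytes, with n = 2 libraries per group. Every library was labelled as wild-type oocytes from ovary, and by the study's methods the mice had a C57BL/6 background, were females of 4 weeks and were primed with 5 IU of PMSG, a gonadotropin, 44 h before collection. For Treat_MII the labels give no agent, and the study used BYBX, a ligand that stabilizes RNA G-quadruplexes (rG4s), with DMSO for the controls. The study's supplement calls the Ribo-lite replicates biological. The labels do not say whether the libraries of a group came from separate collections of oocytes. The p-values thus measure the spread between libraries, which may be technical.

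The libraries were shallow and unequal. The reads behind the FPKM values could be recovered. The WT_FGO libraries were scaled to 94309 and 107251 reads. The WT_MII libraries were scaled to 164972 and 230907 reads, and those of Treat_MII to 331304 and 275604. The 9 genes held 2049 to 7992 of these reads per library. The summed FPKM of 10 oocyte markers ranged from 15930 to 28469 in the WT_FGO libraries, from 16624 to 21095 in those of WT_MII and from 23401 to 24192 in those of Treat_MII, but single markers went different ways. Of the 9 that were tested, 4 were called lower and 2, Dazl and Oosp1, higher at maturation. Dazl was at 23.7 and 0 FPKM in WT_FGO, Figla was at 0 in 3 of the 4 metaphase II libraries, and Sohlh1 held 1 read in all. Gdf9, an oocyte growth factor, lay between 2822 and 5899 FPKM, and its maturation change of -0.62 did not pass (adjusted p = 0.183, limma). Zp3, which codes for a zona pellucida protein, changed by -3.53 on the log2 scale at maturation (adjusted p = 0.00338, limma). The summed FPKM of 12 granulosa or cumulus markers was 143 and 1297 in the WT_FGO libraries against 127 to 297 in the 4 metaphase II libraries, and Tnfaip6, a marker of expanded cumulus, was at 0 in every library. WT_FGO library 2 thus stood apart in this sum, led by Inha at 747 FPKM. Amh, Foxl2, Fshr, Inhba and Fst were also highest there, whereas Cyp19a1 was lowest there (24.7 FPKM) and Kitl and Nr5a2 were at 0. The part of this in the results was not tested. The sum over 9 macrophage or blood markers reached 81.1 and 51.8 FPKM in WT_FGO, 5.30 and 26.7 in WT_MII, and 21.7 and 31.2 in Treat_MII, with Lyz2, Itgam and Hbb-bs at 0 in all libraries. Hba-a1, an alpha globin gene with 3 reads in all, was at 24.9 and 43.8 FPKM in WT_FGO and at 0 in all 4 metaphase II libraries, and was called lower at maturation (adjusted p = 0.0361, limma). Ptprc (24.6 FPKM) and Cd68 (31.7 FPKM), markers of leukocytes and macrophages, were highest in WT_FGO library 1. By contrast, Tyrobp was at 0 in both WT_FGO libraries and highest in Treat_MII library 2 (15.3 FPKM). Csf1r and Adgre1 were at 0 in WT_FGO library 1. The part of these in the maturation results was not tested.

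All 9 genes lie on chromosome 7 (GRCm38, the assembly also called mm10). Nlrp4a, at chr7:26435113-26476142 on the plus strand, sits between Nlrp9c at chr7:26322473-26403700 on the minus strand and Nlrp9a at chr7:26535023-26575615 on the plus strand, so that these 3 genes fill 253 kb. Nlrp9b lies at chr7:19991465-20073306, Nlrp4e at chr7:23301192-23362277, Nlrp4b at chr7:10687789-10730168 and Nlrp4c at chr7:6045161-6105150, each on the plus strand. Nlrp2 is at chr7:5298547-5351035 on the minus strand. Nlrp14 stands alone at chr7:107166990-107198102 on the plus strand, 80591 kb beyond Nlrp9a.

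A footprint is short, so genes of recent copies can be told apart only where their coding sequences differ. The coding sequences of the 3 Nlrp9 genes were 82.3% to 87.5% identical in pairwise alignments, and those of the 4 Nlrp4 genes 78.1% to 93.9%, with Nlrp4c and Nlrp4e the closest pair. Nlrp14 shared 54.0% to 57.5% of aligned bases with the others. The following 30-base windows of single coding exons, written on the coding strand, show the extremes for the Nlrp9 genes. The first stretch is the same in all 3 genes (Nlrp9a chr7:26557433-26557462, Nlrp9b chr7:20023314-20023343, Nlrp9c chr7:26385649-26385678), and the other is the window where they differ most, with capitals at the 25 positions that are not the same in all 3 (Nlrp9a chr7:26558016-26558045, Nlrp9b chr7:20023894-20023923, Nlrp9c chr7:26385066-26385095).
Nlrp9a, Nlrp9b and Nlrp9c, identical window: ttaagaaaagcaatgttggattgggcatca
Nlrp9a, most different window: CAAGTCGtTTTGGtCGaAcaTTAGGACTCC
Nlrp9b, most different window: GGTACTTtAAGGCtAAaAcaGATGCGGCTT
Nlrp9c, most different window: TAATCTCtTCCAGtGAaTcaACATCAGCTA
Of 2181 windows of this length that aligned without a gap (60 bases on either side included), 44 were identical in the 3 genes.

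For the Nlrp4 genes the same search found none among 1594 windows that was identical in all 4. Their most different window had 13 variable positions, given in capitals (Nlrp4a chr7:26449837-26449866, Nlrp4b chr7:10714724-10714753, Nlrp4c chr7:6065969-6065998, Nlrp4e chr7:23320957-23320986).
Nlrp4a: AttgaAtAcacaCatgtGaAaaTAAtAAAG
Nlrp4b: AttgaGtAcacaAatgtGaGaaCAAtAACC
Nlrp4c: GttgaGtGcacaAatgtGaAaaTAGtAACA
Nlrp4e: AttgaGtGcacaAatgtAaAaaTGAtGGCA
Any pair of these windows differed at 6 or more positions.

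The share of 28-base coding words that also occurs in transcripts of other genes gives the room for exchange of reads. It was 0% for Nlrp14, 1.2% for Nlrp4b, 6.0% for Nlrp2, 11.7% for Nlrp9b, 12.4% for Nlrp9c, 15.0% for Nlrp9a and 15.2% for Nlrp4a. Nlrp4c, at 33.7%, and Nlrp4e, at 64.1%, are the uncertain members. How the authors counted reads that fit several places is not given in the sources used here.

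Nlrp14, needed in the egg for early cleavage of the embryo, was by far the highest member in every library. Its level reached 11379 and 8228 FPKM in WT_FGO, 2462 and 2791 in WT_MII, and 5367 and 5238 in Treat_MII. It ranked 4 among all genes by its mean in WT_FGO, 41 in WT_MII and 21 in Treat_MII. The 3 groups did not overlap, with the treated libraries between the others.

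Nlrp2, a maternal-effect gene linked to imprinting, measured 537 and 431 FPKM in WT_FGO, 156 and 176 in WT_MII, and 308 and 262 in Treat_MII. Nlrp9a measured 552 and 414, then 133 and 162, then 295 and 294 FPKM in the same order of groups. Both genes had the lowest values in the WT_MII libraries, without overlap between groups.

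Nlrp9b, known outside the ovary as an intestinal inflammasome sensor, measured 520 and 457 FPKM in WT_FGO, 73.3 and 95.1 in WT_MII, and 200 and 193 in Treat_MII. Its copy Nlrp9c measured 538 and 378, then 275 and 315, then 391 and 445 FPKM. The WT_MII libraries were again the lowest of both genes, and for Nlrp9c the treated and fully grown libraries overlapped.

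The oocyte-restricted Nlrp4a measured 266 and 272 FPKM in WT_FGO, 444 and 605 in WT_MII, and 574 and 478 in Treat_MII. Nlrp4b measured 549 and 436, then 644 and 908, then 960 and 834 FPKM. For both genes all 4 metaphase II libraries were above both fully grown libraries, and the treated and control metaphase II libraries overlapped.

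Nlrp4c and Nlrp4e were near the limit of the data. Nlrp4c rested on 0 and 4 reads in WT_FGO, 4 and 12 in WT_MII, and 17 and 10 in Treat_MII, or 0 to 17.6 FPKM, and the 0 in WT_FGO library 1 allows up to 10.8 FPKM (3 reads). Nlrp4e rested on 12 and 6, then 8 and 17, then 23 and 20 reads, or 16.5 to 43.4 FPKM. Both overlapped in every comparison, and no difference was detectable for either at this depth.

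**Figure D1:**
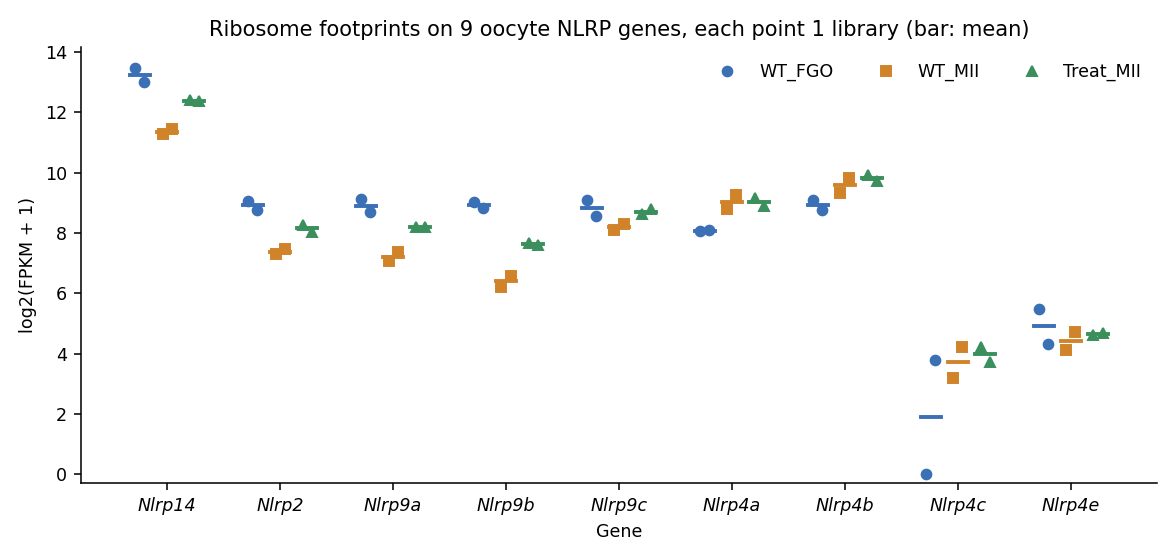
Level of the 9 genes as log2(FPKM + 1) on the vertical axis, with 1 point per library, a bar at the mean of each group and WT_FGO, WT_MII and Treat_MII side by side. Nlrp14 is the highest gene in all 6 libraries; Nlrp2 and the Nlrp9 genes have their lowest points in WT_MII, whereas Nlrp4a and Nlrp4b are lowest in WT_FGO.

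The order of the members by mean level changed between the stages. In WT_FGO, Nlrp4b (492 ± 79.9 FPKM, SD, n = 2), Nlrp9b (488 ± 44.3), Nlrp2 (484 ± 75.1), Nlrp9a (483 ± 97.3) and Nlrp9c (458 ± 114) followed Nlrp14 (9803 ± 2227), and neighbours among these 5 overlapped. Nlrp4a (269 ± 4.13) came next, apart from both neighbours, then Nlrp4e (31.2 ± 17.2) and Nlrp4c (6.33 ± 8.95).

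In WT_MII the middle group had spread out, and the order was Nlrp14 (2627 ± 233 FPKM), Nlrp4b (776 ± 187), Nlrp4a (525 ± 114), Nlrp9c (295 ± 28.2), Nlrp2 (166 ± 14.2), Nlrp9a (147 ± 20.8), Nlrp9b (84.2 ± 15.4), Nlrp4e (20.8 ± 6.06) and Nlrp4c (12.9 ± 6.65). Only the neighbours Nlrp2 and Nlrp9a, and Nlrp4e and Nlrp4c, overlapped. In Treat_MII the order was the same except that Nlrp9a (294 ± 0.992) came before Nlrp2 (285 ± 32.4), and that pair alone overlapped.

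The 9 genes together took 1.79% and 1.38% of the summed FPKM of all genes in WT_FGO, 0.583% and 0.648% in WT_MII, and 1.03% and 0.982% in Treat_MII. Nlrp14 made up 79.1% and 77.3% of the members' sum in WT_FGO, 58.5% and 54.8% in WT_MII, and 66.0% and 67.3% in Treat_MII. Without Nlrp14 the sums lay closer together, at 3006 and 2419 FPKM, 1749 and 2304 FPKM, and 2769 and 2542 FPKM. The sum of the 3 Nlrp9 genes was 2.72 times as high in WT_FGO as in WT_MII, and the sum of the 4 Nlrp4 genes was 1.67 times as high in WT_MII as in WT_FGO (ratios of group means).

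**Figure D2:**
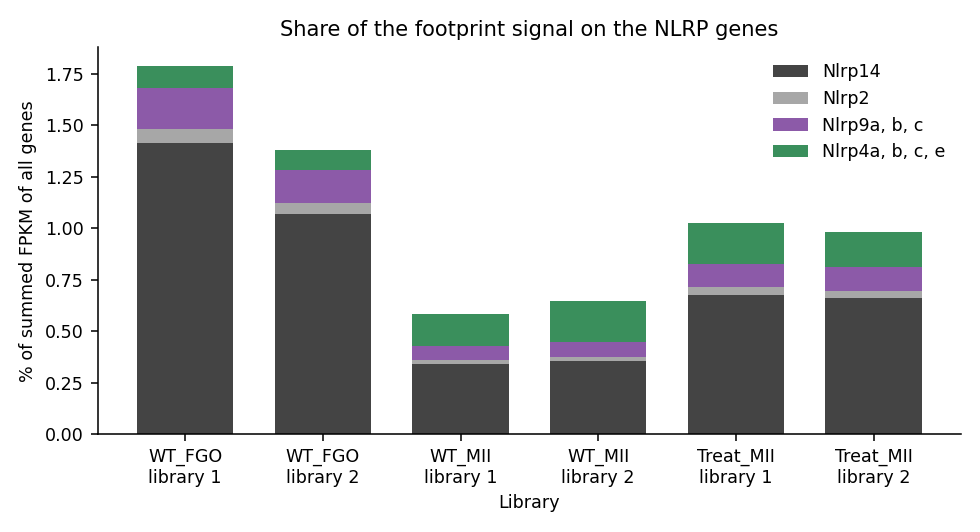
Percent of the summed FPKM of all genes that fell on the members in each of the 6 libraries (stacked bars from 0), split into Nlrp14, Nlrp2, the 3 Nlrp9 genes and the 4 Nlrp4 genes. The whole bar is highest in WT_FGO (1.79% and 1.38%) and lowest in WT_MII (0.583% and 0.648%), and the Nlrp4 part is smallest in WT_FGO.

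The first comparison, WT_MII minus WT_FGO, asks how footprint levels of these mRNAs change during maturation. Nlrp14, Nlrp2, Nlrp9a and Nlrp9b fell, and no member rose past the threshold. Thus 4 of 9 members were called lower (limma, adjusted p under 0.05), where 3.09% of the 15127 tested genes were called lower, and 0 were called higher, where 3.67% were. Oocytes were pooled and mRNA levels were not analysed here, so fewer oocytes with a footprint, fewer footprints per oocyte and less mRNA cannot be told apart. FPKM are scaled to the reads of each library, so a fall is a smaller share of the footprints. A rise of other genes cannot be told apart from a loss either.

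The largest of the 4 falls was that of Nlrp9b, with a log2 change of -2.53 ± 0.31 (SE; adjusted p = 0.00986, limma). Nlrp14 changed by -1.88 ± 0.19 (adjusted p = 0.00565), Nlrp9a by -1.70 ± 0.30 (adjusted p = 0.0299) and Nlrp2 by -1.54 ± 0.29 (adjusted p = 0.0362). In each of the 4 genes both WT_MII libraries were below both WT_FGO libraries, a pattern shown by 25.8% of all tested genes, and by 34.4% of the 2706 genes with at least 60 reads.

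Nlrp9c was lower by the same order of libraries, but its log2 change of -0.62 ± 0.29 did not pass (adjusted p = 0.293). Nlrp4a (0.94 ± 0.28, adjusted p = 0.109) and Nlrp4b (0.64 ± 0.28, adjusted p = 0.237) had positive changes that did not pass, and their WT_MII libraries were above both WT_FGO libraries, as in 15.3% of all tested genes. The changes of Nlrp4c (1.83 ± 1.34, adjusted p = 0.490) and Nlrp4e (-0.48 ± 0.64, adjusted p = 0.682) were uncertain, with errors close to or above the change. The median change of the 9 members was -0.62, beside -0.44 over all tested genes.

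The calls leaned on how the spread was estimated. The SD of log2 differences between a group's libraries was 1.54 in WT_FGO, 1.03 in WT_MII and 0.50 in Treat_MII (2706 genes). Each gene had 1 spread for all 3 groups in the fit, so the tighter Treat_MII libraries entered the maturation p-values. Leaving out either Treat_MII library, which is in neither group, or fitting without the mean-variance trend or on the 2 compared groups alone, left 0 of the 4 calls, with the changes themselves the same. Without WT_MII library 1 or library 2, 1 member (Nlrp9b) was called. Without WT_FGO library 2, which had the highest sum of granulosa markers, the changes were -2.62 (Nlrp9b), -2.12 (Nlrp14), -1.90 (Nlrp9a) and -1.70 (Nlrp2). Without WT_FGO library 1 they were -2.44, -1.65, -1.49 and -1.38. With weights for the precision of the recovered reads and at least 60 reads per gene, Nlrp4a (adjusted p = 0.00929) and Nlrp4b (adjusted p = 0.0453) passed as higher too, where 26.7% of 2706 genes did, beside 4 members lower, where 22.9% did.

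Scaling mattered for direction. Shifting each library to a common median of log2 ratios (centring) added up to 0.54 to the maturation changes. Low genes gained less, as did Nlrp4c, which went from 1.83 to 2.13. The median of all tested genes moved from -0.44 to -0.08. Relative to that centre Nlrp14 and Nlrp9b were still called lower where 2.01% of genes were, and Nlrp4a was called higher (1.48, adjusted p = 0.038), where 4.75% were, whereas Nlrp2 (-1.0) and Nlrp9a (-1.16) were no longer called and Nlrp4e turned from -0.48 to 0.03.

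Ratios of 2 members within a library do not depend on the library's scaling. The ratio of Nlrp4b to Nlrp9b was 1.06 (95% interval 0.831 to 1.34) and 0.953 (0.745 to 1.22) in WT_FGO, 8.78 (6.24 to 12.7) and 9.55 (7.42 to 12.4) in WT_MII, and 4.81 (4.12 to 5.62) and 4.32 (3.63 to 5.16) in Treat_MII. The 2 genes were thus level in fully grown oocytes, and the 3 groups were apart by more than these exact binomial intervals, which cover counting error only.

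Within the 253 kb that hold Nlrp9c, Nlrp4a and Nlrp9a, the neighbours moved apart as well. The ratio of Nlrp4a to Nlrp9a came to 0.482 and 0.657 in WT_FGO, 3.35 and 3.73 in WT_MII, and 1.94 and 1.63 in Treat_MII. The ratio of Nlrp4a to Nlrp9c was 0.495 and 0.721, then 1.62 and 1.93, then 1.47 and 1.07 in the same order. Both ratios were below 1 in the fully grown libraries and above 1 in all 4 metaphase II libraries, although the lowest of these, 1.07, had an interval of 0.929 to 1.24.

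Closely related copies differed among themselves too. Nlrp9b and Nlrp9c were near 1 to 1 in WT_FGO, with ratios of 0.965 and 1.21, and stood at 0.267 and 0.302 in WT_MII and at 0.511 and 0.433 in Treat_MII. By contrast, Nlrp4b to Nlrp4a stayed between 1.45 and 2.06 in the 6 libraries, although the coding sequences of this pair are only 78.1% identical. With 2 libraries against 2, an exact permutation test (two-sided) cannot give a p below 0.333, which is what it gave for the maturation change of each ratio named so far.

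**Figure D3:**
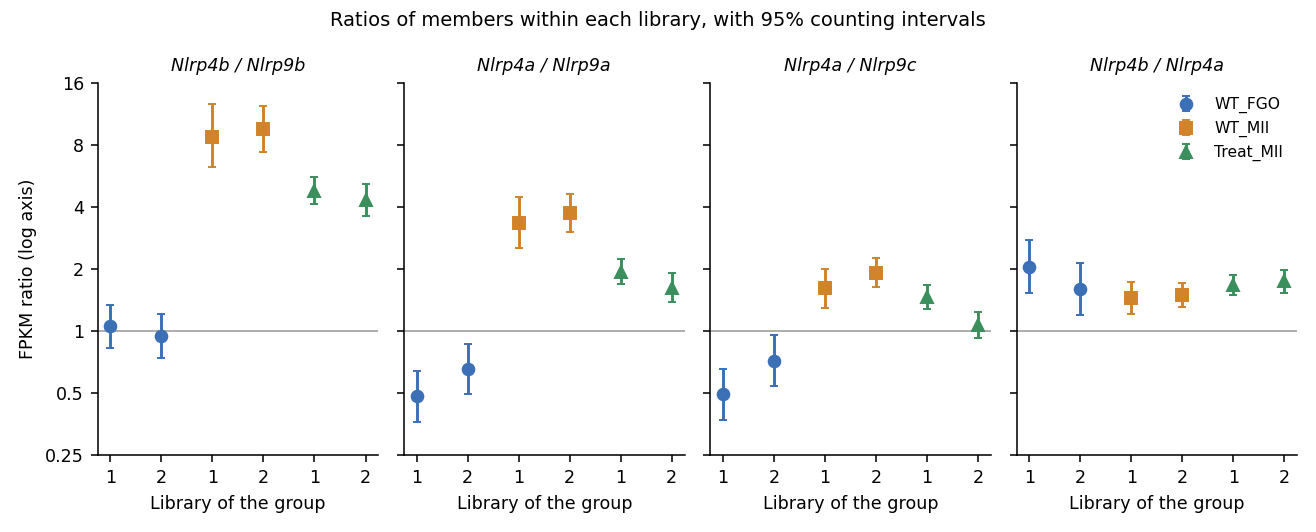
Ratio of FPKM of 2 members in each library (log axis) with 95% exact binomial intervals from the recovered reads, for Nlrp4b to Nlrp9b, Nlrp4a to Nlrp9a, Nlrp4a to Nlrp9c and Nlrp4b to Nlrp4a. The first 3 ratios are lowest in WT_FGO and highest in WT_MII, whereas Nlrp4b to Nlrp4a stays between 1.45 and 2.06.

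The second comparison, Treat_MII minus WT_MII, asks how footprint levels at metaphase II differ with the treatment. Here too, ribosome use and the amount of mRNA cannot be told apart. For BYBX-treated oocytes the study reports higher transcript levels, a lower rate of polar body emission and abnormal spindles. The part of these in the differences was not tested. No member was called in the limma fit, and neither was any of the 15127 tested genes (0%). At an unadjusted p under 0.05 there were 882 genes (5.83%), among them the 4 members Nlrp14, Nlrp9b, Nlrp9a and Nlrp2, all with higher values in the treated libraries.

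Nlrp14 had a log2 difference of 1.02 ± 0.19 (SE; unadjusted p = 0.00174, adjusted p = 0.625, limma), about 2.02-fold in favour of Treat_MII. Nlrp9b differed by 1.22 ± 0.31 (adjusted p = 0.709), Nlrp9a by 1.0 ± 0.30 (adjusted p = 0.793), Nlrp2 by 0.78 ± 0.29 (adjusted p = 0.836) and Nlrp9c by 0.50 ± 0.29 (adjusted p = 0.931). For these 5 members both treated libraries were above both controls, as in 16.2% of all tested genes and in 25% of those with at least 60 reads.

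Nlrp4a and Nlrp4b differed by 0.01 ± 0.28 (adjusted p = 1.0) and 0.23 ± 0.28 (adjusted p = 0.982), and Nlrp4c and Nlrp4e by 0.26 ± 1.34 and 0.24 ± 0.64. The 4 Nlrp4 genes overlapped between the groups. The median difference of the 9 members was 0.50, beside 0.00 over all tested genes.

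The outcome for Nlrp14 depended on the weighting. When limma weighted the recovered reads by their precision over the 2706 genes with at least 60 reads, an alternative chosen after the data were seen, Nlrp14 was called higher in the treated libraries (1.01 ± 0.18, adjusted p = 0.0307), as 1 of 10 genes (0.37%). With such weights over 14545 genes, 3 members (Nlrp14, Nlrp9a and Nlrp9b) were called, where 0.447% of the genes were called higher. In this wider fit each gene's spread came from the shared estimate alone (infinite prior degrees of freedom). The fit with at least 60 reads kept part of each gene's own spread (11.2 prior degrees of freedom). In all other alternatives, 0 members were called. The treated libraries were the deepest of the 6, and the part of depth in these differences was not tested.

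The third comparison, Treat_MII minus WT_FGO, shares its libraries with the other 2 and is not independent of them. No member was called, where 2.86% of the tested genes were called higher and 1.0% lower, and 5 members had an unadjusted p under 0.05, where 19.9% of genes did. Nlrp14 (-0.87 ± 0.19, adjusted p = 0.0715) and Nlrp9b (-1.31 ± 0.31, adjusted p = 0.0861) came nearest to the threshold among the members with negative changes, and Nlrp4a (0.96 ± 0.28, adjusted p = 0.134) and Nlrp4b (0.87 ± 0.28, adjusted p = 0.159) among those with positive changes.

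These values moved with the settings. Precision weights with at least 60 reads called 6 members, namely Nlrp14, Nlrp2, Nlrp9a and Nlrp9b lower and Nlrp4a and Nlrp4b higher, where 24.9% and 27.7% of genes were called lower and higher. Centring, which added up to 0.62 here, called Nlrp4a and Nlrp4b higher, where 4.32% of genes were. It turned Nlrp9c from -0.11 to 0.51 and Nlrp4e from -0.24 to 0.35.

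**Figure D4:**
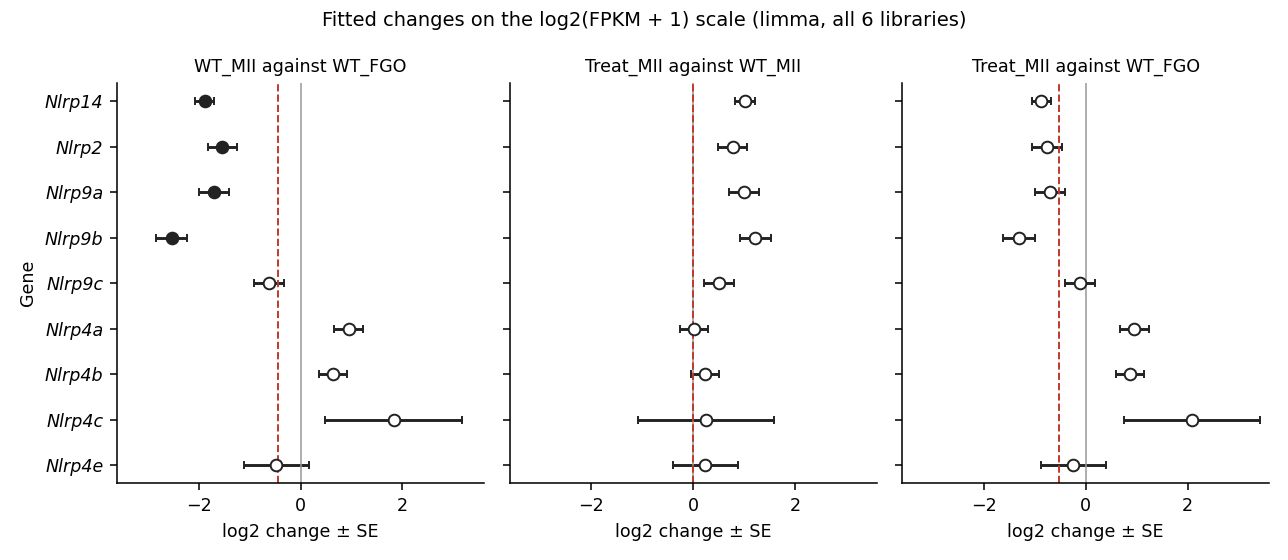
Fitted log2 change with its standard error (horizontal axis, limma on log2(FPKM + 1), n = 2 libraries per group) for the 9 members in the 3 comparisons, with filled points at an adjusted p under 0.05 and a dashed line at the median of all tested genes. Only Nlrp14, Nlrp2, Nlrp9a and Nlrp9b against WT_FGO in the first panel are filled, and the points of Nlrp4a and Nlrp4b are to the right of 0 in both panels against WT_FGO.

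The subcortical maternal complex is a protein assembly under the egg's surface that is needed for the first cleavages, and it contains 2 further NLRP proteins, Nlrp5 and Nlrp4f. All 7 of its listed genes changed at maturation (limma, adjusted p under 0.05), 5 lower and 2 higher, where 3.09% and 3.67% of tested genes did. The list was drawn up with earlier results of these data known. Leaving out either Treat_MII library left 0 of the 7 calls, leaving out either WT_MII library left 4, and 5 and 6 were left without WT_FGO library 1 and library 2.

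Nlrp5, also called Mater and an early known maternal-effect gene, measured 2684 and 1574 FPKM in WT_FGO, 629 and 603 in WT_MII, and 1082 and 1164 in Treat_MII. Its maturation change was -1.74 ± 0.29 (adjusted p = 0.0249, limma), and with centring it was -1.20 and no longer called (adjusted p = 0.0853), the only one of the 7 calls lost there. The ratio of Nlrp14 to Nlrp5 lay between 3.91 and 5.23 in the 6 libraries. Nlrp4f measured 204 and 285, then 666 and 787, then 809 and 780 FPKM, with a maturation change of 1.58 ± 0.27 (adjusted p = 0.0272), the same direction as the values of Nlrp4a and Nlrp4b.

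Among the partners without an NLRP domain, Ooep, a core subunit with a KH-like domain, changed by -3.59 ± 0.18 (adjusted p = 0.000838), and Padi6, an enzyme of the peptidylarginine deiminase family needed for the cytoplasmic lattices, by -2.64 ± 0.18 (adjusted p = 0.00194). The core subunits Tle6 (-2.53 ± 0.33, adjusted p = 0.0118) and Khdc3 (-3.40 ± 0.61, adjusted p = 0.0311) fell as well. Khdc3 changed by -2.64 without WT_FGO library 1, where it was not called (adjusted p = 0.0557), and by -4.16 without WT_FGO library 2. Tle6 was not called without either WT_FGO library (adjusted p = 0.0936 and 0.0938). Zbed3, an axin-interacting protein tied to the complex, went the other way, from 775 and 750 FPKM in WT_FGO to 8995 and 7693 in WT_MII (3.45 ± 0.16, adjusted p = 0.000757), and measured 4232 and 4122 in Treat_MII.

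In the treatment comparison none of the 7 genes was called. With precision weights and at least 60 reads, 3 were, where 10 of 2706 genes (0.37%) were: Padi6 and Tle6 higher and Zbed3 lower in Treat_MII. The log2 differences of the unweighted fit were 0.87 for Nlrp5, 1.10 for Ooep, 1.34 for Tle6, 1.13 for Khdc3, 1.15 for Padi6, 0.13 for Nlrp4f and -0.99 for Zbed3.

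**Figure D5:**
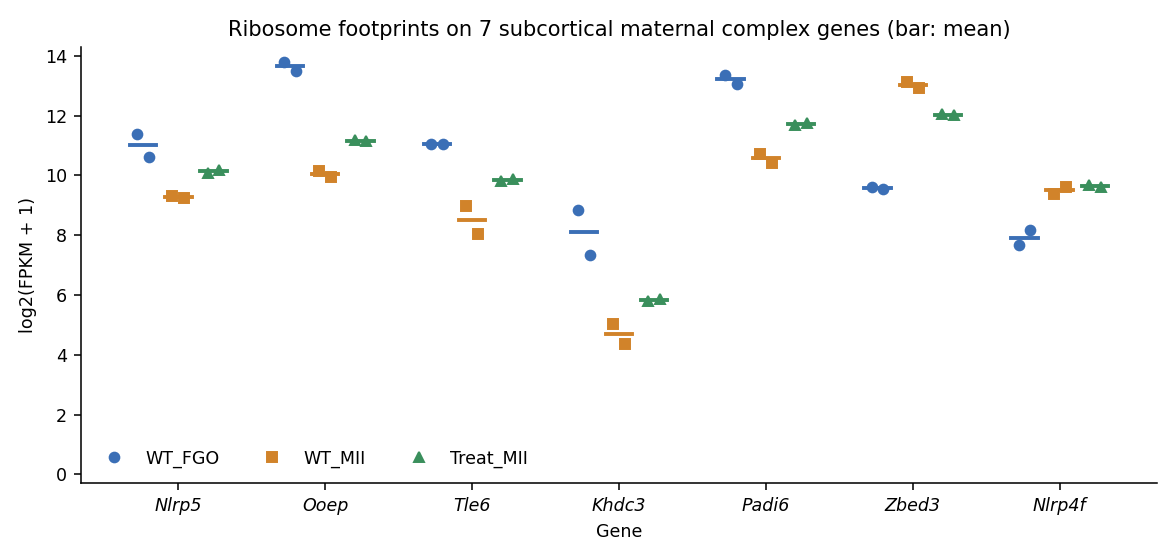
Level of the 7 subcortical maternal complex genes as log2(FPKM + 1), 1 point per library and a bar at each group's mean. In Nlrp5, Ooep, Tle6, Khdc3 and Padi6 the WT_MII points are lowest, in Zbed3 they are highest, and in Nlrp4f the WT_FGO points are below the others.

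Most other NLR genes were low or not detected. Nod1 (142 reads) and Nlrc5 (151 reads), however, held more reads than the members Nlrp4c and Nlrp4e. Of 17 other NLR genes in the table, 10 were tested, 3 were at 0 in all libraries and 3 averaged 10 FPKM or more, and none of the 10 was called in any comparison. The 3 were Nod1, a sensor of bacterial cell wall, with 22.7 to 62.0 FPKM, Nlrc5, a regulator of MHC class I genes, with 11.4 to 47.9 FPKM, and Nlrp1b, an inflammasome sensor, with 7.86 to 26.0 FPKM.

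Of 8 inflammasome partner genes, Pycard, the adaptor of inflammasomes, Casp1, the protease they activate, and Aim2 were at 0 in all 6 libraries. Casp4 (5.39 to 75.8 FPKM, 26 reads in all) and Il1b (0 to 92.0 FPKM, 13 reads) averaged 10 FPKM or more, and none of the 5 tested genes of this list was called. Nlrp14 alone held 18659 reads.

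The members shared features that the choice by name did not use. Their coding sequences were 2592 to 3141 bases long with 38.8% to 45.0% G and C, and the 5′-UTRs of their longest coding transcripts had 5 to 307 bases. No G-quadruplex motif (4 G-runs, each 3 or more long, joined by loops 1 to 7 bases long) was found in the 5′-UTR, the coding sequence or the 3′-UTR of any member. Such a motif is rare in coding sequences of like length (5.35% of 1085), so 0 of 9 is near the background share and not particular to the members, and no share was computed for the UTRs. The absence says only that these letters are not in the annotated transcripts that were searched.

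The ends of the 3′-UTRs are shown because the motifs for cytoplasmic polyadenylation lie there. They are the ends of the annotated transcript with the longest coding sequence of each gene. Other annotated ends were not searched, and the ends used in oocytes were not examined. The motifs searched on the transcript strand in the last 100 bases were TTTTAT and TTTTAAT, forms of the cytoplasmic polyadenylation element, and AATAAA and ATTAAA, the polyadenylation signal. The element was found in Nlrp4a and Nlrp4c only, where 17.8% of 19035 genes held it, and the signal was found in all members but Nlrp14 and Nlrp4a, where 77.5% of genes held it. The windows below hold the last motif of each kind in capitals (Nlrp9a chr7:26574112-26574141, Nlrp9b chr7:20062904-20062933, Nlrp9c chr7:26364698-26364727, Nlrp4a chr7:26476084-26476113, Nlrp4b chr7:10730128-10730157, Nlrp4c chr7:6105112-6105141, strands as for the genes). A further ATTAAA in the windows of Nlrp9c and Nlrp4c overlaps a marked motif and is only partly in capitals.
Nlrp9a: acaagcacattcAATAAAcactaagcatgt
Nlrp9b: acaagcacatttAATAAAcactaagcgtgt
Nlrp9c: acaagcacattaAATAAAcactaagcatgt
Nlrp4a: cttttcatccaaTTTTATgtcatctctcac
Nlrp4b: tttctgttttgtATTAAAgaataacataag
Nlrp4c: tgtgttTTTTATtaaatAATAAAtttaggc
How these motifs bear on the levels was not tested.

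The genes whose pattern was most like the summed FPKM of the members, among 2061 named genes that averaged 50 FPKM or more, were Swi5 (Pearson r = 0.995 over the 6 libraries), Scg3 (0.992), Zp2 (0.991), Txnl1 (0.989) and Ftdc2 (0.989). Zp2 codes for a protein of the zona pellucida and measured 8407 and 4037 FPKM in WT_FGO, 774 and 856 in WT_MII, and 2109 and 2094 in Treat_MII. Swi5 measured 1290 and 815, then 265 and 371, then 603 and 628 FPKM. These correlations describe 6 libraries that fall into 3 groups, and 74 genes of the 2061 had an r above 0.95. Nlrp14 made up 54.8% to 79.1% of the members' sum, so the likeness is mainly to Nlrp14. Nlrp4a and Nlrp4b, by contrast, were lowest in WT_FGO.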

How the data were processed

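The authors deposited FPKM values per gene for the 6 Ribo-lite libraries. The submitters' processing notes name cutadapt 1.14, Bowtie2 2.2.2 and STAR 2.5.3a with mm10, whereas the counting program and the annotation are not given in the sources used here, nor is how molecular identifiers were treated. Of 22442 rows, 26 were dropped because their gene name occurred before. FPKM times the coding length (GENCODE release for GRCm38) fell on whole reads, within 0.02 reads in all libraries, for 97.8% of 16272 genes above 0, and for all 9 members.

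The test was limma (version 3.58.1, R 4.3.3, lmFit and eBayes with trend) on log2(FPKM + 1) of the 15127 genes that averaged 1 FPKM or more. All 6 libraries entered 1 fit with 3 contrasts, and p-values were adjusted by Benjamini-Hochberg over all tested genes and called under 0.05. Fold changes on this scale understate the change of low genes. The script was tested on simulated data. The members, lists and alternatives were chosen with earlier results of these data known, and no p was adjusted over a list. Named genes were the members, the 7 complex genes, list genes that averaged 10 FPKM or more, Zp3 and Gdf9, and the 5 genes most alike. Markers named in the report beyond these (Inha, Tnfaip6, Dazl, Oosp1, Figla, Sohlh1, Lyz2, Itgam, Hbb-bs, Hba-a1, Ptprc, Cd68) were picked after their values were seen. The same holds for Amh, Foxl2, Fshr, Inhba, Fst, Cyp19a1, Kitl, Nr5a2, Tyrobp, Csf1r and Adgre1. Intervals are exact binomial at 95% and, like the floor of 3 reads, cover counting error only. Alignments used biopython 1.88, and sequences come from the GRCm38 genome and its GENCODE transcripts.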

Additional observations from a re-analysis of the deposited data

How the results depend on the processing

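Depth limited Nlrp4c (47 reads) and Nlrp4e (86 reads). The 4 maturation calls among the members stood in 4 fits (pseudocount 0.1, no filter, a mean of at least 5 FPKM, quantile normalization), and became 3 with centring, 5 with at least 60 reads, 6 with precision weights, and 0 with no trend or with only the compared groups. Deviations correlated at 0.0342, 0.0176 and 0.0189 between same-numbered libraries, over genes with at least 60 reads. Counting error can hide a shared part at this depth, so these values cannot decide whether replicate numbers pair the libraries. With the replicate block 2 members (Nlrp14 and Nlrp9b) were called at maturation and 0 in the other comparisons. Leaving out 1 library gave 0 to 4 calls at maturation and 0 in the other comparisons. The median member change at maturation was -0.080 with centring, -1.08 with at least 60 reads and -1.07 with weights on the same genes (both without Nlrp4c), and -1.05 to -0.36 when 1 library was left out. The median treatment difference was 0.41 to 0.76 when 1 library was left out. Members called in the treatment comparison were 3 with precision weights and 1 with weights and at least 60 reads. The fit with precision weights but no read limit used no gene's own spread. For treated against fully grown libraries they were 2 with centring, 1 with quantile normalization, 6 with precision weights, 4 with at least 60 reads and 6 with both. With quantile normalization, 598 of all tested genes were called higher and 171 lower in this comparison, and 686 and 402 at maturation. Apart from centring and weights with at least 60 reads, no share of all genes is given for the other alternatives of these 2 comparisons. The member counts there cannot be set against the other genes. Of the 7 complex genes, 0 were called at maturation with no trend or only the compared groups, and 0 to 6 when 1 library was left out. In the treatment comparison 3 were called with weights and at least 60 reads, where 0.37% of 2706 genes were. With precision weights alone 5 were called, and no share of all genes in both directions is given for that fit. The log2 ratio of the summed FPKM of the 9 members was -1.43 at maturation (-1.63 to -1.19 when 1 library was left out) and 0.77 for treatment (0.64 to 0.92).

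Signs that turned were all of changes that had not passed. Nlrp4e at maturation was 0.032 with centring and 0.074 with quantile normalization, with -1.05 to 0.092 when 1 library was left out, and for treated against fully grown 0.35, 0.36 and -0.82 to 0.33. Nlrp9c for treated against fully grown was 0.51 with centring and -0.37 to 0.14 when 1 library was left out. Nlrp4a under treatment was -0.067 with quantile normalization, -0.010 with precision weights and -0.21 to 0.24 when 1 library was left out. Leaving out 1 library gave treatment differences of -0.021 to 0.47 for Nlrp4b, -0.25 to 0.76 for Nlrp4c and -0.051 to 0.52 for Nlrp4e, and maturation changes of -0.058 to 3.71 for Nlrp4c. The cause was not tested. The 60-read settings were added after the data were seen.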
